A study of Mus musculus with 3 samples.

Results

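The genes of NAD synthesis were followed across the cells of 3 kidneys taken 14 days after folic acid (FA). The set held 9 of the 27998 genes in the files and was named gene by gene: Kmo, Kynu, Afmid, Haao and Qprt of the de novo route, Acmsd, which draws from that route, and Nadsyn1, Nampt and Nmnat1, which serve the later or alternative steps. All 9 symbols occurred in the files. Single-cell libraries were made from 2 Aoah-/- mice (mouse 2 and mouse 3) and from 1 wild-type (WT) mouse, all aged 6 to 8 weeks and all given FA, a nephrotoxic dose of which injures the proximal tubule. The Aoah-/- mice carry a global knockout of the gene for acyloxyacyl hydrolase, backcrossed to C57/BL6J, and the WT mice of the study were littermates. Every kidney had received FA, so no level below describes an uninjured kidney. Unless stated otherwise, values are given in the order Aoah-/- mouse 2, Aoah-/- mouse 3, WT.

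NAD carries electrons in glycolysis, the citric acid cycle and fatty acid oxidation, and it is consumed by sirtuins, PARPs and CD38. Cells make it from tryptophan by the de novo (kynurenine) route, from nicotinic acid by the Preiss-Handler route, or from nicotinamide by salvage. The proximal tubule and the liver are the main sites of the de novo route, and proximal tubular epithelial cells (PTECs) depend on fatty acid oxidation for ATP. In the de novo route Afmid releases kynurenine from its formyl precursor, Kmo hydroxylates kynurenine, Kynu cleaves the product, and Haao opens the ring of 3-hydroxyanthranilate to yield an unstable intermediate. That intermediate either closes to quinolinate, which Qprt converts to nicotinic acid mononucleotide, or is decarboxylated by Acmsd and so leaves the route to NAD. Nmnat1 adds the adenylyl group in the nucleus for every route, Nadsyn1 amidates the last precursor of the de novo and Preiss-Handler routes, and Nampt catalyses the rate-limiting step of salvage.

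The genes lie on different chromosomes of the mouse assembly GRCm38 except for shared chromosomes 1 and 7, and all are annotated as protein coding (GENCODE M21). Kmo spans chr1:175620381-175662116 and Acmsd chr1:127729413-127767978, both on the plus strand, and Qprt spans chr7:127107114-127122226 and Nadsyn1 chr7:143795584-143822849, both on the minus strand. Haao lies at chr17:83831156-83847963 (minus), Kynu at chr2:43555329-43682715 (plus), Afmid at chr11:117825924-117839908 (plus), Nampt at chr12:32819545-32853349 (plus) and Nmnat1 at chr4:149467572-149485202 (minus). The RefSeq promoter table (GRCm38.p6) held 8 of the 9 genes, without Kynu, and 7 are described here. Over the 250 bases upstream of the start site, 32851 promoters of the table held a median of 6 CG dinucleotides (quartiles 2 and 16). Kmo held 5, Haao 6 and Qprt 6, whereas Afmid held 15, Nadsyn1 23, Nmnat1 24 and 23 at its 2 listed starts, and Nampt 27. The promoter of Nampt is shown because it held the most CG dinucleotides of those given and because the gene was present in every nephron class, as described below. Capitals mark each CG. The window is chr12:32820085-32820334 on the plus strand of GRCm38.p6. It lies within the GENCODE span of the gene, whose most upstream transcript starts earlier.
Nampt promoter: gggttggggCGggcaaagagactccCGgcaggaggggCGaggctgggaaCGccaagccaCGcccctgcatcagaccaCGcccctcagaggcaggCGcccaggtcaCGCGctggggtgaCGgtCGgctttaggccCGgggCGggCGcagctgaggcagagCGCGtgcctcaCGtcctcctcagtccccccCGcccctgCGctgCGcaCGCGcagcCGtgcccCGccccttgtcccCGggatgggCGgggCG
Among motifs of tubular transcription factors, the HNF1 motif GTTAAT (either strand), present in 6.43% of all promoters, occurred in that of Haao and in none of the others given here. The HNF4 motif CAAAGTCCA (0.384% of promoters) and the TATA box TATAAA (12.4%) occurred in none of them. The windows of Haao and Kmo also lay within the GENCODE spans of their genes. All 250 bases of the Haao window, with its HNF1 match, and 197 bases of the Kmo window lay in an annotated exon. Those of Qprt, Afmid and Nmnat1 overlapped an annotated exon in part, and those of Nadsyn1 and Nampt did not. A match or its lack describes these letters in these windows and nothing of the factors.

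The libraries held 25516, 24693 and 23072 barcodes with 167222984, 161015021 and 158551992 unique molecular identifiers (UMIs), the molecule counts of the assay. After filtering, 21368, 19692 and 18202 cells were kept. Each pair of libraries shared 171 to 176 barcode sequences. Aoah itself stood at 6.06 and 5.68 CPM (UMIs of a gene per 1000000 UMIs) in the Aoah-/- libraries and 15.3 CPM in the WT library. No barcode of Aoah-/- mouse 3 held fewer than 1672 UMIs, against a minimum of 500 in both other libraries. The cells were grouped into nephron classes by markers after clustering without the 9 genes. Cells of the S1/S2 segments of the proximal tubule numbered 4680, 2238 and 4151, and those of the S3 segment 2687, 1921 and 3510. Injured PTECs, defined by Havcr1, Vcam1, Sox9 and related genes, numbered 122, 241 and 72. A further 1052, 3177 and 1926 PTECs could not be given a segment, and 2799 of those of Aoah-/- mouse 3 formed a cluster that also held Ptprc of leukocytes (101 CPM) and Umod of the ascending limb (1210 CPM).

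The class names were given by marker genes, so the marker levels below describe the classes and are no separate check. Slc5a2, the S1/S2 glucose transporter, stood at 527, 645 and 568 CPM in S1/S2 cells and at 16.6, 26.4 and 27.7 CPM in S3 cells. Slc7a13, an S3 amino acid transporter, stood at 19.1, 17.3 and 42.8 CPM in S1/S2 cells and at 575, 698 and 802 CPM in S3 cells. Of the S1/S2 markers, Slc22a6 and Slc22a12 went the other way and the rest were higher in S1/S2 cells. Slc22a6 stood at 445.8, 431.3 and 390.6 CPM in S1/S2 cells and at 1021, 1082 and 988.6 CPM in S3 cells. Slc22a12 stood at 369.5, 312.5 and 310.3 CPM in S1/S2 cells and at 710.1, 699.9 and 666.6 CPM in S3 cells. Havcr1, which encodes KIM-1, rose from below 1 CPM in S1/S2 cells to 192, 177 and 226 CPM in injured PTECs, where the S1/S2 marker Slc5a2 was still at 143, 120 and 123 CPM. The 10 S1/S2 markers summed to 1579, 1444 and 1510 CPM in injured PTECs, against 5301, 5648 and 4681 CPM in S1/S2 cells. The 10 S3 markers summed to 353.4, 399 and 480.3 CPM in injured PTECs, against 1905, 2327 and 2231 CPM in S3 cells. In S1/S2 cells the S3 markers summed to 324.2, 354.3 and 428.2 CPM. No segment was given to injured PTECs. Mitochondrial genes took a median of 23.8, 24.8 and 25% of the UMIs of an S1/S2 cell, 23.7, 21.5 and 23.2% of an S3 cell, but 9.3, 11.7 and 9.3% of an injured PTEC.

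Levels below are the summed UMIs of a gene in a class of a library, per 1000000 UMIs of that class. With 1 WT mouse there was no test across mice. Intervals are exact Poisson 95% intervals and cover counting error only. A gene was called between classes when it differed at least 2-fold in the same direction within each of the 3 libraries, and between genotypes when both Aoah-/- libraries differed at least 1.5-fold from the WT library in the same direction, on the log2(CPM + 1) scale and among genes with a mean of at least 10 CPM over the groups compared. These calls are rules of size and carry no p-value. The assay counts transcript ends and levels were not compared between genes.

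**Figure D1:**
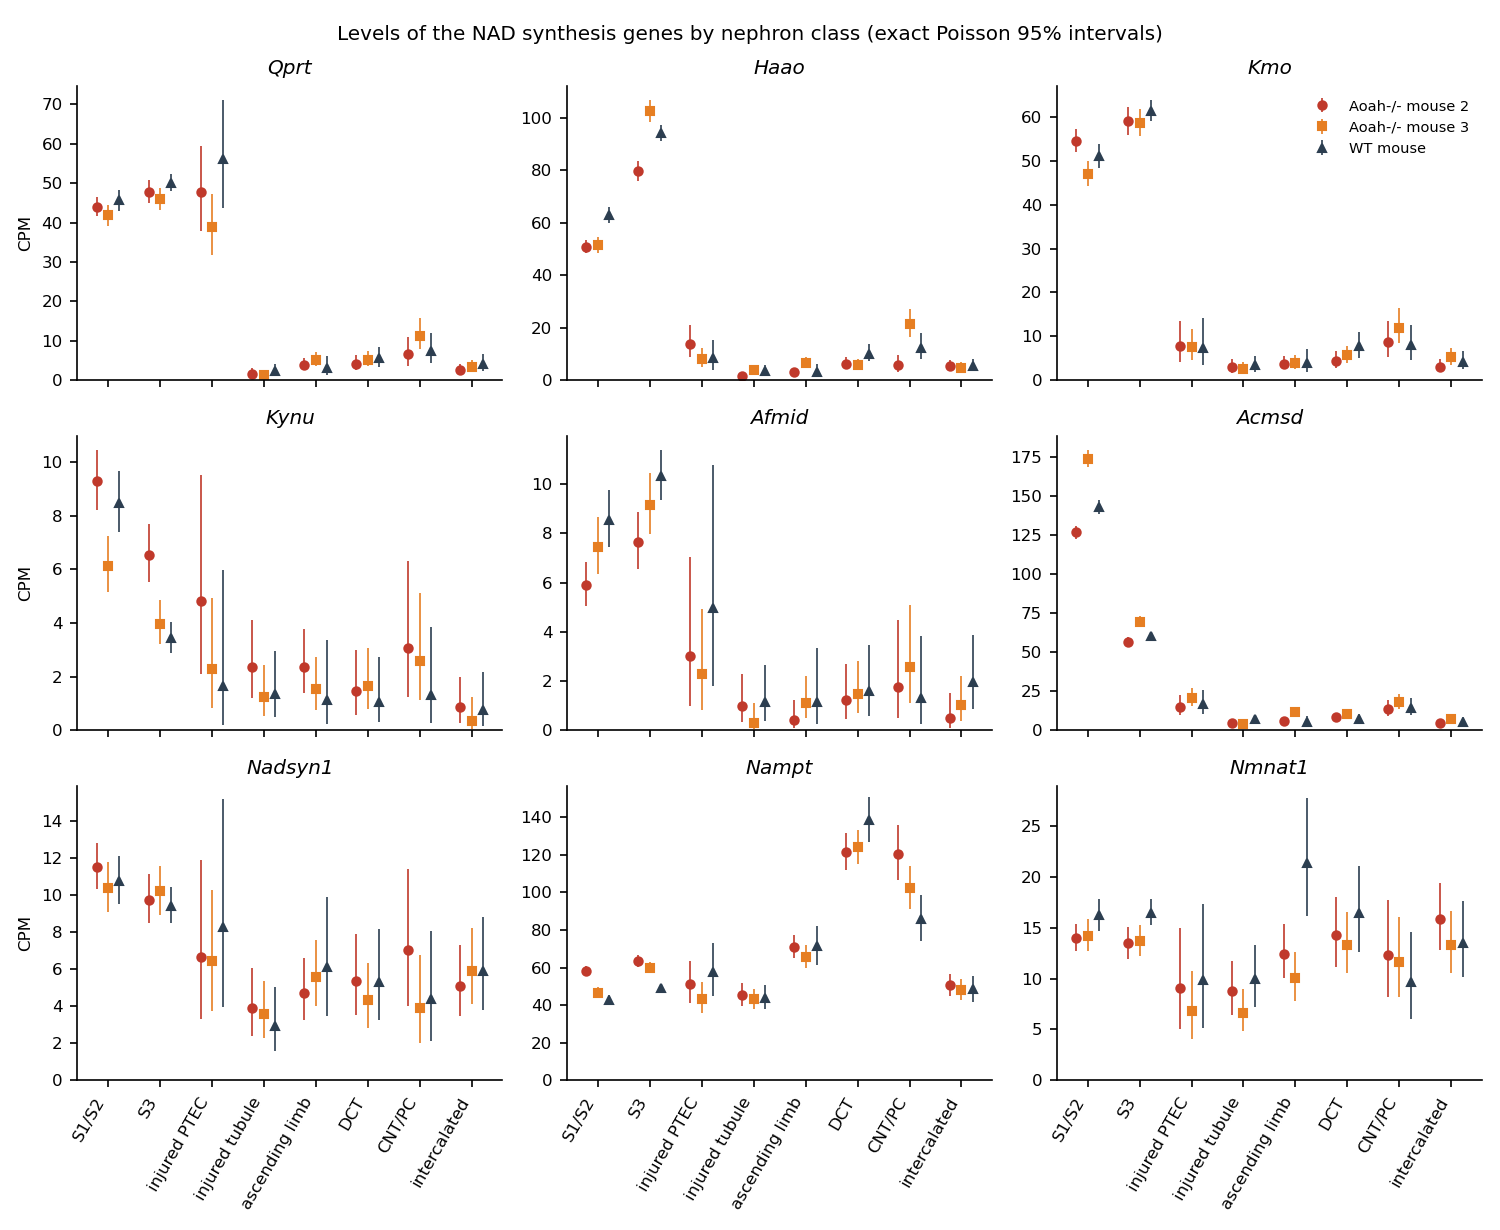
Level of each of the 9 genes (CPM, linear axis from 0, scaled for each gene) in the nephron classes, 1 point per library, with exact Poisson 95% intervals as bars; DCT is the distal convoluted tubule, CNT/PC the connecting tubule with principal cells, and injured tubule the injured cells without PTEC markers. Haao, Kmo and Acmsd stand higher in S1/S2 and S3 PTECs than in injured PTECs or the distal classes, Qprt is as high in injured PTECs, and Nampt, at 121.5 to 138.4 CPM in the distal convoluted tubule, lies above its PTEC levels there.

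The genes of the de novo route were highest in PTECs among the nephron classes, and Acmsd was lower in S3 than in S1/S2. Acmsd stood at 126.6, 173.8 and 142.7 CPM in S1/S2 cells (3700, 3919 and 3701 UMIs) and at 56.4, 69.5 and 60.3 CPM in S3 cells (1253, 1630 and 2413 UMIs). The lowest S1/S2 library lay above the highest S3 library. Acmsd was thus 2.22-, 2.48- and 2.34-fold lower in S3 (mean log2 difference -1.23 ± 0.079, SD, n = 3 libraries). The 3 S1/S2 subclusters held 130, 147 and 162 CPM of Acmsd and the 2 S3 subclusters 63.1 and 57.2 CPM. After each cell was thinned to 1000 UMIs, which left out 1470, 0 and 1106 of the S1/S2 cells, 10.7, 15.5 and 12.5% of S1/S2 cells and 4.51, 6.61 and 5.70% of S3 cells held an Acmsd UMI. In the ascending limb, which should lack the gene, 1.18, 1.16 and 0.976% did. Without thinning the shares were 33.3, 58.9 and 38.2% of S1/S2 cells, 25.6, 37.6 and 34.8% of S3 cells and 3.68, 6.68 and 2.75% of ascending limb cells.

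Haao ran the other way. It stood at 50.8, 51.3 and 62.7 CPM in S1/S2 cells and at 79.6, 102.5 and 94.1 CPM in S3 cells. S3 exceeded S1/S2 by 1.55-, 1.98- and 1.49-fold (mean log2 difference 0.73 ± 0.22, SD, n = 3), in every library but below the 2-fold rule. The S1/S2 subclusters differed among themselves, with 70.0, 61.1 and 35.3 CPM of Haao, and the S3 subclusters held 92.5 and 93.0 CPM.

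PTECs without a segment held Haao at 138.4, 86.2 and 170.1 CPM and Acmsd at 85.9, 80.0 and 71.5 CPM. The other genes differed less between the segments. Kmo stood at 54.7, 47.0 and 51.1 CPM in S1/S2 cells and at 59.1, 58.7 and 61.5 CPM in S3 cells (log2 difference 0.23 ± 0.106). Qprt stood at 44.0, 41.8 and 45.6 CPM in S1/S2 cells and at 47.9, 45.9 and 50.1 CPM in S3 cells (0.13 ± 0.00715). For both, S3 lay above S1/S2 within each library, by at most 1.24-fold. The subclusters did not keep this order. Kmo stood at 53.7, 47.3 and 50.8 CPM in the S1/S2 subclusters and at 64.0 and 46.1 CPM in the S3 subclusters. Qprt stood at 43.6, 51.3 and 40.1 CPM in the S1/S2 subclusters and at 47.8 and 50.3 CPM in the S3 subclusters. Kynu was low, at 9.27, 6.12 and 8.48 CPM in S1/S2 cells and 6.53, 3.96 and 3.42 CPM in S3 cells, lower in S3 within each library although the segments overlapped across mice. Afmid stood at 5.88, 7.45 and 8.56 CPM in S1/S2 cells and 7.65, 9.17 and 10.3 CPM in S3 cells, again overlapping across mice. Within each library its S3 level lay above that of S1/S2 (log2 difference 0.28 ± 0.0432). Nadsyn1 was at 10.4 to 11.5 CPM in S1/S2 and 9.42 to 10.2 CPM in S3, and Nmnat1 at 14.0 to 16.2 and 13.5 to 16.5 CPM. Nampt, at 58.1, 46.6 and 42.7 CPM in S1/S2 cells, was at 63.5, 59.97 and 48.9 CPM in S3 cells, with a log2 difference of 0.23 ± 0.119.

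Of the 7 genes with a mean of at least 10 CPM over these segments, 1 (Acmsd) was called lower in S3 and 0 were called higher, against 2.09% lower and 2.05% higher among all 7132 genes tested. The median log2 difference of all 9 members was 0.13, beside -0.0733 over all genes tested. The Acmsd call was lost, with a mean log2 difference of -1.12, when cells with fewer than 500 genes were left out, and at -1.06 when the same lowest UMI total was set for all libraries.

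**Figure D2:**
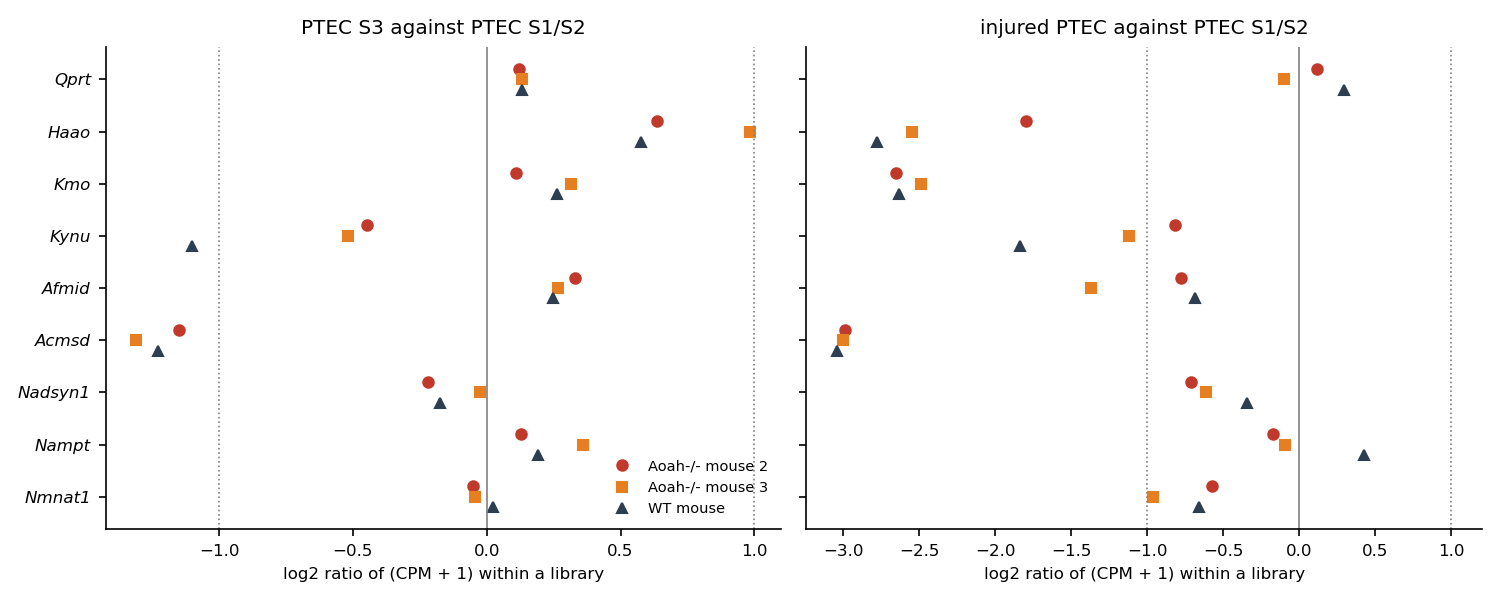
Log2 ratio of (CPM + 1) to S1/S2 PTECs within the same library (horizontal axis) for the 9 genes in S3 (left) and in injured PTECs (right), 1 point per library; dotted lines mark 2-fold. Acmsd lies beyond the lower line in both panels, Haao is higher in S3 and lower in injured PTECs, and Qprt lies between -0.100 and 0.294 in injured PTECs.

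Injured PTECs held Qprt within 1.23-fold of the level in S1/S2 cells of the same library, but little Haao, Kmo or Acmsd. As injured PTECs were given no segment, injury and segment could not be told apart in this comparison. Qprt stood at 47.7, 39.0 and 56.1 CPM in injured PTECs (79, 103 and 68 UMIs), with 95% intervals of 37.8 to 59.5, 31.8 to 47.2 and 43.6 to 71.1 CPM that overlapped those of the S1/S2 cells of the same library. Its log2 difference from S1/S2 cells was 0.115, -0.100 and 0.294 (mean 0.10 ± 0.197, SD, n = 3), without 1 direction. Haao, the step before quinolinate, stood at 13.9, 7.94 and 8.25 CPM (23, 21 and 10 UMIs; 95% intervals 8.81 to 20.9, 4.92 to 12.1 and 3.96 to 15.2 CPM). It was 3.48-, 5.85- and 6.89-fold lower than in S1/S2 cells (mean log2 difference -2.38 ± 0.514), and the highest interval of injured PTECs ended below the lowest of S1/S2 cells.

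Kmo stood at 7.85, 7.56 and 7.43 CPM in injured PTECs (13, 20 and 9 UMIs) and was 6.29-, 5.61- and 6.18-fold lower than in S1/S2 cells (-2.59 ± 0.0894). Acmsd, the enzyme that competes for the product of Haao, stood at 15.1, 20.8 and 16.5 CPM (25, 55 and 20 UMIs) and was 7.92-, 8.02- and 8.21-fold lower (-3.01 ± 0.0258). The size of these folds depends on the segment taken as reference. Mean Acmsd was 62.05 CPM in S3 cells against 147.7 CPM in S1/S2 cells, whereas mean Haao was 92.05 against 54.96 CPM. Among Haao, Kmo and Acmsd, Acmsd had the smallest SD between libraries. Counting error on 9 to 55 UMIs per library was not separated from these SDs, so they do not rank the spread between mice. Kynu (8, 6 and 2 UMIs) and Afmid (5, 6 and 6 UMIs) were counted too rarely in injured PTECs to be placed, at 1.65 to 4.83 and 2.27 to 4.95 CPM.

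Nampt, Nmnat1 and Nadsyn1 serve salvage or the later steps. Nampt stood at 51.4, 43.5 and 57.8 CPM in injured PTECs, with log2 differences from S1/S2 cells of -0.175, -0.0965 and 0.427 that did not share a sign. Nmnat1 stood at 9.06, 6.81 and 9.90 CPM, lower than in S1/S2 cells in each library by 1.49-, 1.95- and 1.58-fold (-0.73 ± 0.202). Nadsyn1 stood at 6.65, 6.43 and 8.25 CPM, 1.27- to 1.63-fold lower.

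Of the 6 genes tested, 3 (Haao, Kmo and Acmsd) were called lower in injured PTECs and 0 higher, against 3.86% lower and 15.1% higher of all 8205 genes tested. Kmo, under 10 CPM in injured PTECs, passed the filter through its level in S1/S2 cells. The median log2 difference of all 9 members, tested or not, was -0.943, beside 0.42 over all genes tested. Since mitochondrial genes took a smaller share of UMIs in injured PTECs, the levels were also taken without the 13 mitochondrial genes, which gave log2 differences of -3.29 for Acmsd, -2.87 for Kmo, -2.66 for Haao and -0.166 for Qprt, so the sign of the small Qprt difference turned while the 3 calls held. The 8 immune markers that reveal mixed barcodes summed to 140, 140 and 36.3 CPM in injured PTECs and to 121, 84.8 and 54.8 CPM in S1/S2 cells, and 62.3, 57.7 and 31.9% of injured PTECs held at least 1 of their UMIs. Without the PTECs that held one, the log2 differences were -3.02 for Acmsd, -2.85 for Kmo, -2.09 for Haao and 0.0518 for Qprt.

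PTEC transcripts also reach other droplets as free RNA, so the levels in injured PTECs were set beside 12 general PTEC markers such as Slc34a1, Lrp2 and Cubn. Relative to all PTECs of the same library, the median marker in injured PTECs stood at 24.7, 21.6 and 23.7%, and single markers ranged from 6.97 to 50.5%. Haao stood at 19.5, 10.0 and 8.86%, Kmo at 13.8, 15 and 12.9% and Acmsd at 15.9, 18.5 and 18.4%, all inside that range. Qprt, at 97.4, 89.1 and 106%, stood above the highest marker in every library, as did Nampt at 84.9, 82.1 and 125% and Nadsyn1 at 65.6, 68.8 and 89.2%. The part of free RNA in the low levels of Haao, Kmo and Acmsd was not tested.

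**Figure D3:**
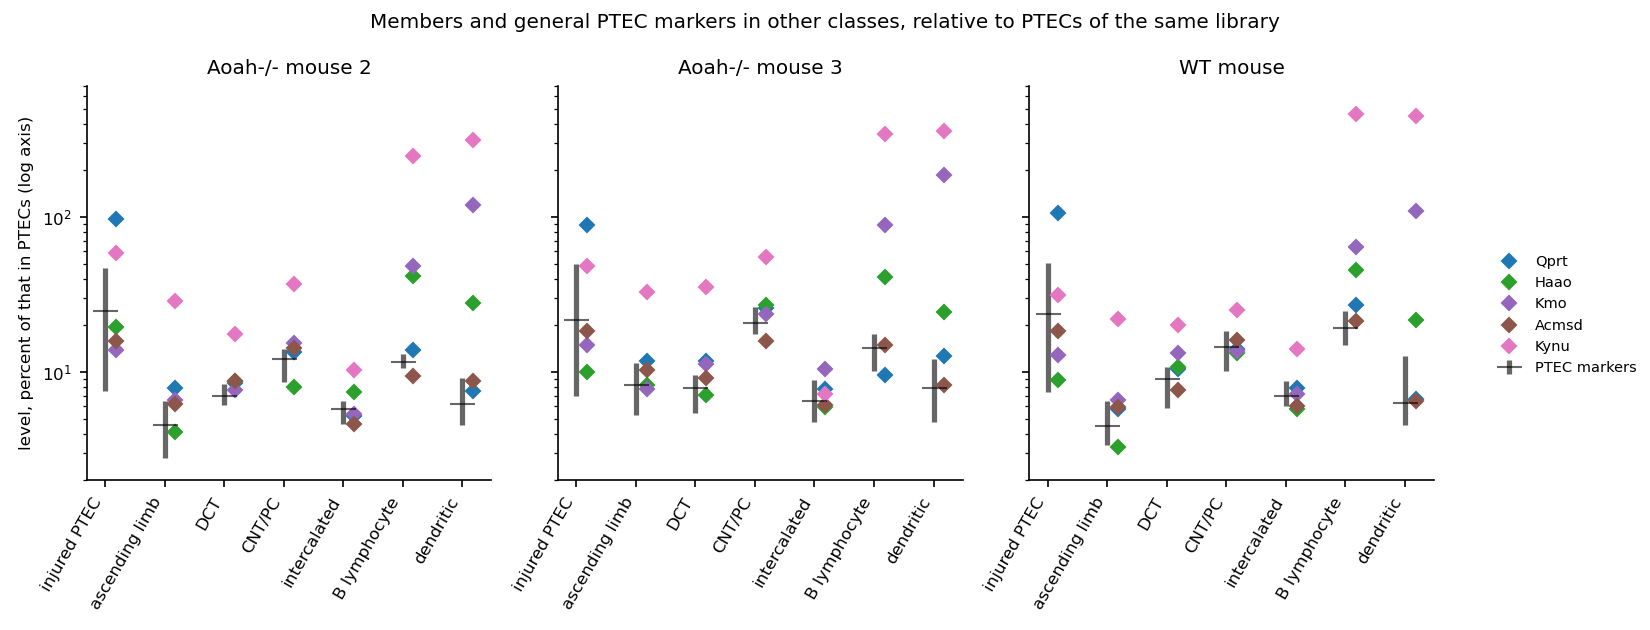
Level of 5 genes and of the general PTEC markers in other classes, as a percent of the level in all PTECs of the same library (log axis), 1 panel per library; diamonds mark the genes, the grey bar the range of the markers and its cross line their median; DCT is the distal convoluted tubule and CNT/PC the connecting tubule with principal cells. Qprt lies above the markers in injured PTECs but among or near them in the ascending limb, and Kmo lies above them in B lymphocytes and dendritic cells. Kynu lies above them in every library in the ascending limb, DCT, CNT/PC, B lymphocytes and dendritic cells.

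In injured tubule cells without PTEC markers, injury and segment could not be told apart in the comparison with S1/S2 cells. Subclusters of 388 and 593 of these cells matched the markers of the ascending limb best. Another of 518 cells matched those of the connecting tubule with principal cells. Tubule cells with injury genes but without PTEC markers (500, 682 and 355 cells) held Qprt at 1.56, 1.24 and 2.26 CPM, which was 17.6-, 19.1- and 14.3-fold below S1/S2 cells. Relative to PTECs, Qprt stood at 3.19, 2.83 and 4.27% there, beside 3.82, 4 and 4.01% for the median PTEC marker. Acmsd was 22.4-, 33.7- and 18.0-fold lower than in S1/S2 cells. Nampt, at 45.3, 43.1 and 44.0 CPM, differed from S1/S2 cells by at most 1.28-fold in any library. Its mean was 44.1 CPM, beside 69.3 CPM in the ascending limb. In these cells 4 of 6 genes tested (Qprt, Haao, Kmo and Acmsd) were called lower and 0 higher, against 10.6% and 21.4% of all genes. All 4 had class means under 10 CPM there (1.69, 2.89, 2.98 and 5.29 CPM) and passed the filter only through S1/S2 cells.

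In the distal nephron Qprt, Haao, Kmo and Acmsd were low and Nampt was not. The ascending limb (1032, 1033 and 473 cells) held Qprt at 3.88, 5.15 and 3.05 CPM, Haao at 2.91, 6.55 and 3.05 CPM, Kmo at 3.74, 3.90 and 3.81 CPM and Acmsd at 5.96, 11.6 and 5.34 CPM. These were 6.96- to 11.5-fold, 6.93- to 15.7-fold, 9.80- to 11.7-fold and 13.9- to 22.7-fold below S1/S2 cells. Qprt stood at 7.92, 11.8 and 5.77% and Acmsd at 6.26, 10.3 and 5.94% of their PTEC level, beside 4.57, 8.29 and 4.49% for the median PTEC marker and 6.51, 11.5 and 6.51% for the highest. Qprt thus lay above the highest marker in both Aoah-/- libraries and below it in WT, and Acmsd lay below it in all 3. Kynu, at 2.36, 1.53 and 1.14 CPM in the ascending limb, stood at 28.6, 32.8 and 21.9% of its PTEC level, above every marker. It rested there on 31 UMIs in all libraries together. Kynu also lay above every marker in the distal convoluted tubule, at 17.6, 35.5 and 20.2%, on 21 UMIs. The same held in the connecting tubule with principal cells, at 37.2, 55.4 and 25.2%, on 18 UMIs. In intercalated cells it did so in Aoah-/- mouse 2 and WT only. The 8 immune markers summed to 493.5, 915.8 and 276.5 CPM in the ascending limb. Their sums were 154.6, 183.4 and 89.97 CPM in the distal convoluted tubule. In the connecting tubule with principal cells they were 165.3, 557.9 and 65.42 CPM. B lymphocytes and dendritic cells held Kynu at means of 20.2 and 22.0 CPM, and the part of mixed barcodes was not tested. The part of free RNA in these levels was not tested.

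The same 4 genes, Qprt, Haao, Kmo and Acmsd, were called lower than in S1/S2 cells in each of the 4 distal classes, among 6 genes tested in each. The shares of all genes called lower were 10.9% in the ascending limb, 12.5% in the distal convoluted tubule, 9.45% in the connecting tubule with principal cells and 10.7% in intercalated cells. Qprt and Kmo had class means under 10 CPM in each of the 4. Haao and Acmsd did so in all but the connecting tubule with principal cells, where their means were 13.1 and 15.3 CPM. Wherever its class mean was under 10 CPM, a gene passed the filter only through S1/S2 cells. The median log2 difference of all 9 members, tested or not, was -2.15, -1.90, -1.53 and -2.44 in these classes, beside 0.20, 0.0377, 0.20 and 0.37 over all genes tested. Kynu and Afmid reached at most 3.07 CPM in the distal classes of any library. Nadsyn1 lay at 3.88 to 7.02 CPM in the distal classes, and neighbours in the order of these classes were not separated in every library.

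Nampt had its own order. It was highest in the distal convoluted tubule, at 121.5, 124.0 and 138.4 CPM (587, 748 and 523 UMIs), 2.07-, 2.63- and 3.19-fold above S1/S2 cells. The connecting tubule with principal cells followed at 120.6, 102.1 and 85.6 CPM, 2.06-, 2.17- and 1.98-fold above S1/S2 cells and so short of the rule in the WT library alone. The ascending limb stood at 70.9, 65.6 and 71.3 CPM. Each of these 3 classes lay above the next in every library, and their values did not overlap across mice. In Aoah-/- mouse 2 the distal convoluted tubule and the connecting tubule with principal cells were close, at 121.5 and 120.6 CPM. That gap was not set against counting error. Below these 3 classes, S3, injured and S1/S2 PTECs and intercalated cells (50.7, 47.9 and 48.5 CPM) overlapped across mice. S3 nevertheless lay above S1/S2 within each library. Nampt was thereby the 1 gene called higher in the distal convoluted tubule among the 6 tested, where 10.1% of all genes were, and 0 were called higher in the ascending limb (12.7% of all genes), the connecting tubule with principal cells (12.3%) or intercalated cells (17.8%). Thin limb cells were few (17, 15 and 14), and 58, 54 and 32 UMIs gave 397, 328 and 257 CPM of Nampt, with 95% intervals of 302 to 513, 247 to 429 and 176 to 363 CPM. The intervals lay above the distal convoluted tubule in all libraries, but the class was left out of the order because it held under 50 cells. Its 46 cells were a subcluster of the injury-rich clusters, with 5 of the injured PTEC markers at least 2-fold up. Injury and segment could therefore not be told apart in the thin limb class. After thinning to 1000 UMIs, 7.08, 6.29 and 7.32% of ascending limb cells and 5.30, 4.42 and 3.88% of S1/S2 cells held a Nampt UMI.

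Nmnat1, the nuclear adenylyltransferase, was the most even of the 9. Its mean over libraries lay between 14.2 and 14.8 CPM in S1/S2 cells, the distal convoluted tubule, the ascending limb, S3 cells and intercalated cells, which did not differ beyond their spread, the ascending limb alone ranging from 10.0 to 21.4 CPM. The connecting tubule with principal cells stood at 12.3, 11.6 and 9.66 CPM, and injured PTECs and injured tubule cells without PTEC markers were lowest, at means of 8.59 and 8.46 CPM.

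The Aoah-/- and WT kidneys were compared within the same class. In S1/S2 cells, where 7 genes were tested, 0 were called higher and 0 lower in the Aoah-/- mice, against 1.41% and 0.755% of all 7289 genes. In S3 cells the counts were 0 and 0 of 6, against 1.01% and 0.985%, and in injured PTECs 0 and 0 of 4, against 3.58% and 2.27%. The median log2 ratio of all 9 members, tested or not, was -0.0863, -0.0582 and -0.284 in the 3 classes, beside -0.0652, -0.053 and -0.0484 over all genes.

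Nampt showed the widest offset in S3 cells among the genes tested there. Both Aoah-/- libraries, at 63.5 and 59.97 CPM, lay above the WT library at 48.9 CPM, by 1.29- and 1.22-fold (Aoah-/- mean 61.8 ± 2.52, SD, n = 2). In S1/S2 cells Nampt was at 58.1 and 46.6 CPM against 42.7 CPM, where the 2 Aoah-/- mice differed from each other by more than their mean differed from WT. In injured PTECs it was at 51.4 and 43.5 CPM against 57.8 CPM, below WT in both, with intervals of 41.0 to 63.5, 35.9 to 52.2 and 45.0 to 73.0 CPM that overlap. That sign turned, to a mean log2 ratio of 0.38, when the libraries were scaled by the PTEC markers, whose summed level in injured PTECs was 7785, 8072 and 12640 CPM.

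Haao in S1/S2 cells stood at 50.8 and 51.3 CPM in the Aoah-/- mice and at 62.7 CPM in WT (log2 ratio -0.29 ± 0.00942), but at 79.6 and 102.5 against 94.1 CPM in S3, on both sides of WT. By S1/S2 subcluster, Haao stood at 69.35 and 68.04 against 71.49 CPM and at 56.28 and 62.28 against 65.24 CPM. In the last it stood at 35.57 and 34.05 against 37.07 CPM. The first subcluster held 9430890 and 7760657 UMIs against 14434907 in WT, and the last 13635023 and 10338452 against 5529954. The part of this mix in the Haao ratio was not tested. Nmnat1 was lower in both Aoah-/- libraries in S1/S2 (14.0 and 14.2 against 16.2 CPM) and in S3 (13.5 and 13.7 against 16.5 CPM), by 1.13- to 1.21-fold. Acmsd lay on both sides of WT in S1/S2, in S3 and in injured PTECs. Qprt was within 1.09-fold of WT in S1/S2 and S3. It was 1.17- and 1.43-fold lower in injured PTECs, on 79 and 103 UMIs against 68, where the sign turned (mean log2 ratio 0.29) under scaling by the PTEC markers. UMIs of immune markers were present in 45.6 and 46.2% of Aoah-/- S1/S2 cells and 23.2% of WT S1/S2 cells. For S3 cells the shares were 47.7 and 47.1% against 28.6%. Leaving those cells out was among 19 recomputations of each S1/S2 and S3 ratio, but their part was not tested. Over all 19, the mean log2 ratio of Nmnat1 ran from -0.315 to 0.116 in S1/S2 and from -0.37 to -0.0042 in S3. That of Haao in S1/S2 ran from -0.595 to -0.0552, and that of Nampt in S3 from 0.207 to 0.372.

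**Figure D4:**
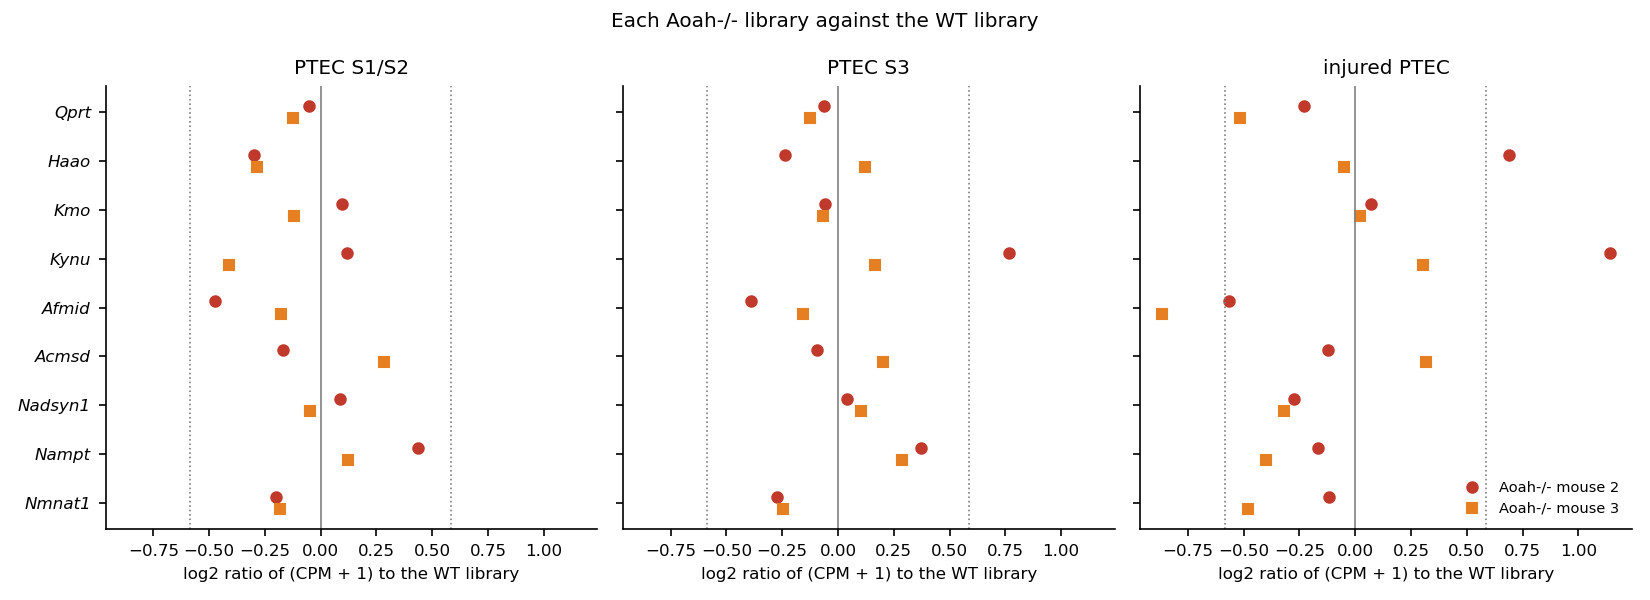
Log2 ratio of (CPM + 1) in each Aoah-/- library to the WT library (horizontal axis) for the 9 genes in S1/S2, S3 and injured PTECs; circles are Aoah-/- mouse 2, squares Aoah-/- mouse 3, and dotted lines mark 1.5-fold. No gene has both Aoah-/- libraries beyond the same dotted line in any class.

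Other genes of NAD metabolism, 32 in a fixed list, showed where the rest of the pathway stood. Of the 3 listed genes of entry from tryptophan, Tdo2 and Ido1 were at or below 0.0887 CPM in S1/S2, S3 and injured PTECs of every library. Ido2 was at 5.45, 7.03 and 7.79 CPM in S3 cells and 0.31 to 0.69 CPM in S1/S2 cells. Of 17 listed genes tested between the segments, 1 was called higher in S3 (2.05% of all genes) and 0 lower. It was Aadat, a kynurenine aminotransferase, at 33.2, 32.0 and 50.5 CPM in S1/S2 cells and 81.4, 96.6 and 123.9 CPM in S3 cells. Slc22a13, a transporter of nicotinate, was likewise detected in S3 (7.34, 8.18 and 7.89 CPM) at levels below the test, and stood at 0.58, 0.18 and 0.66 CPM in S1/S2.

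In injured PTECs, 3 of 17 listed genes tested were called lower and 0 higher, against 3.86% and 15.1% of all genes. Aldh8a1, which acts on the branch downstream of Acmsd, went from 223.0, 238.2 and 249.5 CPM in S1/S2 cells to 60.4, 56.4 and 53.6 CPM. Nadk2, the mitochondrial NAD kinase, went from 55.6, 53.6 and 50.7 to 21.8, 21.2 and 22.3 CPM, and Sirt3, a mitochondrial deacetylase that uses NAD, from 54.0, 52.9 and 61.9 to 19.3, 16.3 and 28.1 CPM. The cytosolic kinase Nadk stood at 67.8, 65.9 and 61.6 CPM in S1/S2 cells and 69.5, 79.0 and 68.5 CPM in injured PTECs, and the nicotinamide riboside kinase Nmrk1 at 82.8, 51.1 and 59.5 and at 68.3, 61.7 and 57.8 CPM. In the ascending limb, 4 of 18 were called lower (Aadat, Aldh8a1, Nmrk1 and Nmnat3) and 2 higher, against 10.9% and 12.7% of all genes, so the share called higher was near that of all genes. The 2 were Ccbl2 and Ppargc1a, a regulator of mitochondrial biogenesis, at 264.0, 223.7 and 324.2 CPM against 81.2, 91.1 and 86.7 CPM in S1/S2 cells. Ccbl2, a kynurenine aminotransferase, was at 29.5, 31.8 and 31.7 CPM against 9.44, 9.94 and 9.41 CPM, and passed the filter only through the ascending limb. Aadat (3.19, 7.38 and 4.58 CPM) and Nmnat3 (7.34, 6.55 and 7.63 CPM) were under 10 CPM in the ascending limb. They passed the filter only through S1/S2 cells.

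Across 27 points (9 classes by 3 libraries, which share libraries and depth, so the coefficients are descriptions), Haao and Kmo varied most alike among the 9 (Pearson r = 0.97), followed by Kmo and Acmsd (0.96). Nampt had r between -0.268 and 0.158 with the others. Of 4244 genes, the most like Qprt were Pipox (0.99) and Pter (0.99), Pecr was the most like Haao (0.99), and Cela1 (0.98) and Fam151a (0.97) the most like Acmsd. For Kmo they were 4931406C07Rik (0.99) and Ankrd13c (0.99), for Afmid Cmbl (0.98) and Khk (0.98), and for Kynu Idh1 (0.88) and Asb13 (0.88). For Nampt they were Pacsin2 (0.86) and Kl (0.81), for Nmnat1 Sod2 (0.91) and Atp5f1 (0.88), and for Nadsyn1 Galc (0.88) and Fcgrt (0.88).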

How the data were processed

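The authors made 10x Chromium 3′ v2 libraries from kidneys digested with collagenase IV and DNase, strained and freed of erythrocytes. The deposited files hold raw UMI counts per gene and barcode, 1 matrix for each of the 3 libraries, with no normalization. The submitters' processing notes name Cell Ranger 3.1.0, STAR, Seurat 4.2.0 and mm10, whereas the matrix headers name Cell Ranger 6.1.2.

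Barcodes under 200 genes or over 50% mitochondrial UMIs were dropped; the bound is wide since PTECs are rich in mitochondria. Cells were clustered with scanpy 1.11.5 and igraph 0.11.9 (2000 variable genes, 50 principal components, 15 neighbours, resolution 1, PTECs and injury-rich clusters again at 0.5) without 53 genes, among them the 9 members, the 32 other NAD genes, Aoah, Cd74 and MHC class II. Clusters were named by fixed markers, at least 3 of them 2-fold up. Doublets were not removed in the reported values, and an alternative dropped the top 10% of cells by Scrublet score. The members and lists were chosen with earlier results of these data known, and the rules for segments (S1/S2 at a marker ratio of at least 8, S3 at most 2.5), injury-rich clusters and injured PTECs were set after values were seen. Class sums of UMIs in each library were expressed as counts per 1000000 (CPM) with exact Poisson intervals (numpy 2.4.6, scipy 1.17.1). Shares of cells have exact Clopper-Pearson intervals after thinning each cell to 1000 UMIs. The 2-fold and 1.5-fold rules used a pseudocount of 1 CPM. They were tried on simulated Poisson counts with planted changes larger than both folds and no spread between mice. That trial therefore does not show how the rules behave under the spread between mice. Genes named are the members, the listed NAD genes past a rule or at a step without a member, and the 2 of most like pattern, of which an unplaced clone name is left out. No test was made across mice, because WT had 1 library. The promoter of 1 further member is not reported here.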

Additional observations from a re-analysis of the deposited data

Results flagged for a closer look

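In 4 comparisons every Aoah-/- library lay on one side of the WT library in 1 PTEC class and on the other side in another. Nampt had a mean log2 ratio of Aoah-/- to WT of 0.279 in S1/S2 cells and 0.33 in S3 cells, but -0.284 in injured PTECs. Scaled by the general PTEC markers, the injured PTEC value became 0.378. Nadsyn1 had 0.0721 in S3 cells and -0.296 in injured PTECs, the latter on 11, 17 and 10 UMIs. Kmo had -0.0616 in S3 cells and 0.0471 in injured PTECs, where 13, 20 and 9 UMIs were counted. These differences between classes were not tested, as WT had 1 library. The share of all genes that change side in this way was not counted, so the 4 comparisons are descriptions only.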

How the results depend on the processing

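Of 211 recomputed counts of members, 204 stayed within 1.5 times the reported count, and 7 moved. With genes kept only at a mean of at least 50 CPM, the members at least 2-fold higher in S1/S2 cells than in all 4 distal classes went from 4 to 1, and those lower in injured PTECs from 3 to 1, since fewer members were tested. The count lower in S3 went from 1 to 0 with at least 500 genes per cell and again to 0 with the same lowest UMI total in all libraries; the cause was not tested. In injured PTECs, the members higher in Aoah-/- went from 0 to 1 under scaling by the general PTEC markers, and leaving out each Aoah-/- replicate in turn gave 0 to 1, the 1 being Haao without Aoah-/- replicate 3 (log2 ratio 0.687). The members whose share of cells was higher in S1/S2 than in the ascending limb, with intervals apart in every library, rose from 4 to 7 when cells were not thinned. Of 783 recomputed values of single members, 203 moved by more than the spread between libraries and 0 of the called ones reversed. Mean log2 differences from S1/S2 ranged from -1.31 to -1.06 for Acmsd in S3, and in injured PTECs from -3.31 to -2.49 for Acmsd, -2.91 to -1.79 for Kmo and -2.72 to -1.71 for Haao. No distal convoluted tubule class was found with at most 20% mitochondrial UMIs, and no injured PTEC class in every library when each was clustered alone. No paired analysis was possible because the Aoah-/- and WT groups shared only replicate number 3. With 9 to 23 UMIs of Haao or Kmo per library in injured PTECs, and 100 of Acmsd in all libraries together, counting error limits those levels.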

Other observations

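Outside the nephron, Kmo and Kynu were present in leukocytes. A cluster of 290 cells led by Jchain, Siglech and Mzb1, genes known from plasmacytoid dendritic cells, held Kmo at 145, 200 and 185 CPM (316 UMIs in all) and Kynu at 41.2, 33.3 and 61.8 CPM. A second dendritic cluster of 1175 cells, with Ccl17 and Cd209a among its leading genes, held Kmo at 48.2, 68.6 and 44.1 CPM and Kynu at 21.8, 12.7 and 17.6 CPM. B lymphocytes held Kynu at 20.5, 16.0 and 24.0 CPM and Kmo at 27.4, 44.6 and 37.1 CPM. Relative to PTECs of the same library, Kynu stood at 248, 343 and 460% in B lymphocytes and 312, 360 and 451% in dendritic cells, beside 11.6, 14.3 and 19.1% and 6.20, 7.89 and 6.35% for the median PTEC marker. Haao in B lymphocytes stood at 41.7, 41.3 and 45.7%, above the same markers. Nampt was at 99.5, 84.8 and 72.9 CPM in monocytes and 98.5, 100.8 and 88.2 CPM in neutrophils.

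A PTEC subcluster without a segment (3076 cells, 856, 378 and 1842 by library) held Haao at 188 CPM and Qprt at 92.2 CPM, above each named S1/S2 and S3 subcluster, but Nadsyn1 at 3.66 CPM, below each of them. Its median mitochondrial share was 7.35%, and Slc34a1 and Lrp2 were at 1190 and 300 CPM, the lowest among the PTEC subclusters.

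Among the listed NAD genes, 2 of 19 tested in injured PTECs were at least 1.5-fold higher in both Aoah-/- libraries than in WT and 0 lower, against 3.58% and 2.27% of all genes. Nnmt, which methylates nicotinamide, stood at 12.1 and 16.6 CPM against 6.60 CPM (20, 44 and 8 UMIs), and Bst1, an ectoenzyme that cleaves NAD, at 24.8 and 15.1 CPM against 7.43 CPM (41, 40 and 9 UMIs). Both were under 10 CPM in WT and passed the filter only through the Aoah-/- libraries, where they were high. The 8 immune markers summed to 140 and 140 CPM in these Aoah-/- cells and 36.3 CPM in the WT cells, and their part was not tested. In S1/S2 cells, 1 of 16 (Aadat) was lower in Aoah-/-, where 0.755% of all genes were, at 33.2 and 32.0 CPM against 50.5 CPM.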
